A study of Drosophila melanogaster with 8 samples.

Results

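The adult testis library clones are the array targets named AT followed by 5 digits, after cDNA clones isolated from an adult testis library of Drosophila melanogaster. The name alone decides which of the non-control targets belong, and they number 139 of 25768 fly targets on the array, with 158 probes in 284 spots. The arrays, 8 in all and of 1 colour, compared a mutant with its control in RNA of the whole body. The control was the strain w1118, and the mutant carried darkcd4, an allele of the Apaf-1 counterpart dark that makes flies deficient in apoptosis, in the same w1118 background after 6 generations of backcrossing. There were 4 samples of each genotype, each pooling 5 adults at day 5, which had been free to feed and to mate since eclosion. The labels give no sex, and they do not say whether the samples of a genotype were raised apart, so that the p-values speak only for the spread among these 8 samples, which may be technical.

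In the testis, germline stem cells give rise to spermatocytes, which transcribe a large set of genes that few other tissues use, and many of these RNAs are stored and translated only when the spermatids elongate. Late in this process the spermatids, which share one cytoplasm, are separated into single sperm, a step known as individualization that uses caspases and the Dark adaptor without killing the cell. In a whole fly such transcripts are read against the RNA of all other tissues, and fewer germ cells, or fewer males among the pooled flies, cannot be told apart from less RNA per germ cell.

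A level below is the log2 processed signal of a target's probe minus the log2 75th percentile of its array. That percentile was taken over all spots outside the controls, so that 0 marks it. The signal of a probe also depends on the probe itself, so levels of different clones are not amounts of RNA. The 75th percentile lay between 253.9 and 553.1 on the 8 arrays, where 70.3% to 78.0% of spots outside the controls rose well above background. All arrays lay on 1 slide, with 2 arrays of each genotype in each of its 2 rows. Small structured RNAs, 12 targets among them U1 and U2 snRNA, U3 snoRNA and 7SL RNA, averaged 1.19 in w1118 replicate 1, 1.92 in darkcd4 replicate 1 and 1.44 in darkcd4 replicate 2, against -0.68 to -0.23 on the other 5 arrays. These 3 arrays stand apart from the rest, all of them in row 1, and results are given below with and without them.

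The testis clones were readily seen in whole flies. Of the 139 clones, 126 (90.6%) exceeded background clearly on 4 or more of the 8 arrays and were tested, compared with 74.6% of all fly targets, and 120 were so on all 8 arrays. The median w1118 level of the 126 clones was -0.68 (quartiles -2.67 and 1.26), compared with -1.10 for the other 19093 targets tested (quartiles -3.37 and 0.70). The 58 tested clones of the ovary library, named GM and 5 digits, had a median of -2.02, and the 184 of the head libraries GH, HL and RH a median of -1.86. Over the other clone libraries with at least 20 targets, the share tested ran from 70.0% (RH) to 92.2% (GH), with 89.2% for GM. A high share was thus not particular to the testis clones. The median levels of these libraries ran from -2.54 (IP) to -0.81 (SD). Replicates of the control were as close for the testis clones as elsewhere: the SD over the 4 w1118 arrays was 0.19 in the median clone and 0.19 in the median of the other targets. Over the darkcd4 arrays the median SD was 0.39 for the testis clones and 0.30 for the others.

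The name of the library is the only sign of tissue for most of these clones. A gene could be named for 23 of the 139, 21 of them tested, and 1 clone matched several genes. The testis genes listed by role were protamine and Mst genes, genes of meiotic arrest and spermatocyte transcription, and axonemal dyneins and tubulins. Further lists held sperm leucyl aminopeptidases, testis paralogs of proteasome and mitochondrial proteins, and individualization genes. In these lists wuc, listed under meiotic arrest and spermatocyte transcription, was the one gene matched to a tested target. The list of germline stem cell and somatic testis genes had 1 tested target, eya, read by the clone LD16029. The list of ovary and female fat body genes had 0. Only 384 of 32162 fly probes could be given a gene name, so a listed gene without a match may still have a target on the array. How far each clone is restricted to the testis was therefore not tested here.

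Most testis clones had lower signals in the darkcd4 flies. The fitted difference, darkcd4 minus w1118, was below 0 for 105 of 126 clones (83.3%), where 52.3% of all targets and 52.1% of the other targets had one below 0. The median difference was -0.36 on the log2 scale for the testis clones (quartiles -0.56 and -0.11) and -0.02 for the other targets (quartiles -0.26 and 0.21). Differences below -0.5 were found for 45 clones (35.7%), where 9.47% of all targets had one. The ovary clones had a median difference of -0.10 with 62.1% below 0, and the head clones -0.07 with 57.1% below 0. Among the other clone libraries with at least 20 targets the median ran from -0.10 to 0.06 and the share below 0 from 40.0% to 62.1%. These are descriptions of the sets, for which no test was made.

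**Figure D1:**
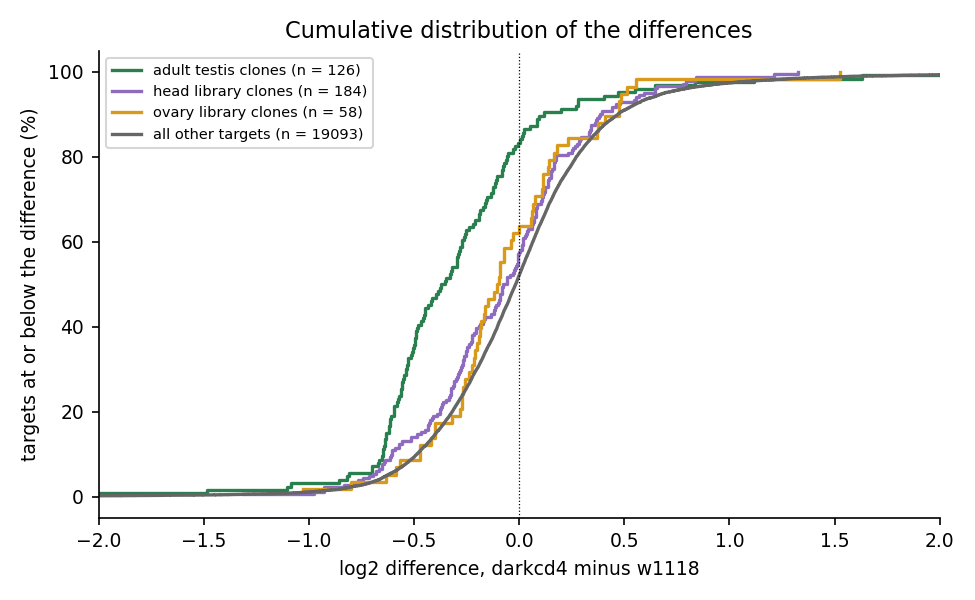
Cumulative share of targets (percent, vertical axis) at or below each log2 difference between darkcd4 and w1118 (horizontal axis, shown from -2 to 2) for the testis, head and ovary clones and for all other targets. The testis curve lies to the left of the others between about -0.5 and 0.5, with its median at -0.36 against -0.02 for all other targets, and reaches 83.3% at 0.

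The shift was small for single clones, and few passed the test. In the fit over all 19219 targets, 5 of the 126 testis clones were called (limma, adjusted p under 0.05), 3.97% of them, where 2.21% of all targets were called. Of these 5, 3 were lower and 2 higher in the mutant, against 0.911% and 1.3% of all targets. The difference was at least 2-fold for 4 of them (3.17%; 1.37% of all targets). The testis share is thus within a few clones of the background, and no call was made for the other 121, whose median difference was -0.35. At an unadjusted p under 0.05, 51 clones passed (40.5%; 21.1% of all targets), 45 of them lower (35.7%; 11.4% of all targets) and 6 higher (4.76%; 9.73% of all targets). The 4 values of one genotype lay apart from the 4 of the other for 18 clones (14.3%), close to the 11.8% found over all targets. Of these, 15 were lower in the mutant (11.9%; 5.82% of all targets) and 3 were higher (2.38%; 5.98% of all targets).

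The size of the shift differed between the mutant arrays. The median level of the testis clones was -0.79, -0.69, -0.50 and -0.61 on w1118 replicates 1 to 4 and -1.37, -1.25, -0.72 and -1.08 on darkcd4 replicates 1 to 4. The groups overlap, since darkcd4 replicate 3 lies above w1118 replicate 1, while the other 3 mutant arrays are below every control. Means were -0.65 ± 0.12 in w1118 and -1.10 ± 0.28 in darkcd4 (SD, n = 4 each). The median of all other targets stayed between -1.13 and -1.08 on all 8 arrays. Relative to that median, the testis clones stood 0.45 ± 0.12 above it in w1118 and 0.00 ± 0.26 in darkcd4 (SD, n = 4 each). The ovary clones, whose level was also lowest on the arrays of row 1 rich in small structured RNAs, had array medians of -2.06 ± 0.22 in w1118 and -2.31 ± 0.36 in darkcd4 (SD, n = 4 each), a difference of -0.44 in row 1 and -0.07 in row 2. The head clones were also lowest on the same arrays, with a difference of -0.16 in row 1 and -0.02 in row 2. For the testis clones the difference of array medians was -0.57 in row 1 and -0.34 in row 2.

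**Figure D2:**
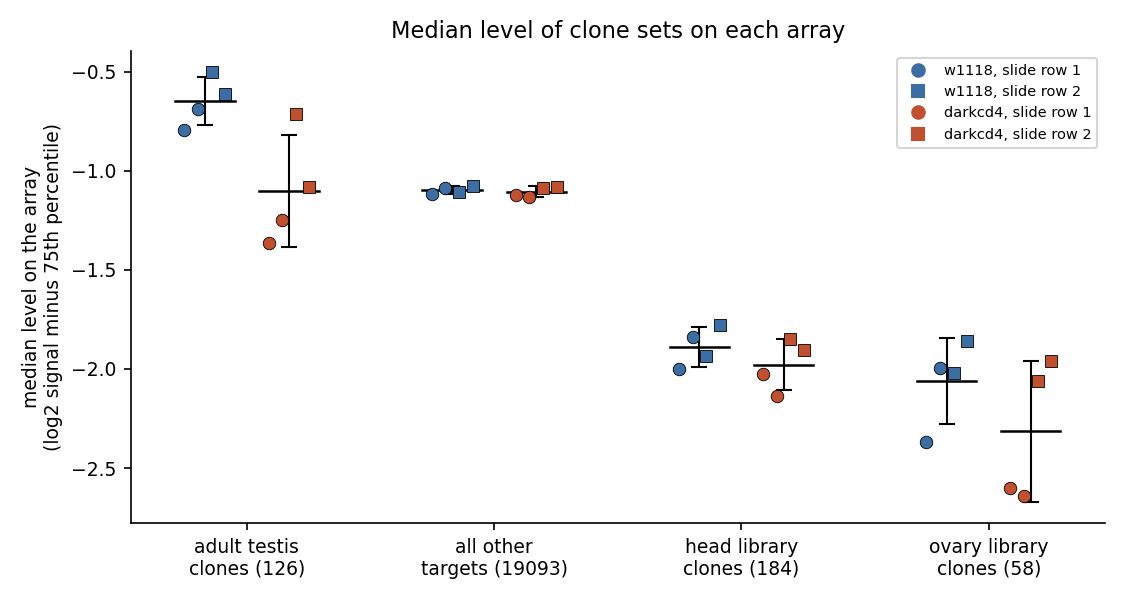
Median level (log2 signal minus the 75th percentile) on each array of the testis clones, all other targets, head clones and ovary clones. Circles are arrays of slide row 1 and squares of row 2, w1118 in blue and darkcd4 in red, with the mean and SD of each genotype as bars. The testis medians of 3 darkcd4 arrays lie below all w1118 arrays, and that of darkcd4 replicate 3, at -0.72, lies among them.

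Clone by clone the same arrays stood out. On darkcd4 replicate 1, 93 of the 126 clones (73.8%) were below all 4 control arrays, where 39.1% of all targets were. The count was 87 (69.0%; 37.6% of all targets) on replicate 2 and 63 (50.0%; 26.7% of all targets) on replicate 4. On replicate 3 it was 24 (19.0%), near the 20.3% of all targets. Darkcd4 replicate 3 was the highest mutant array for 88 clones (69.8%), a count that was not made over all targets. Among the controls, replicate 1 was the lowest array for 68 clones (54.0%), whereas it was the lowest for 39.3% of the other targets. Of the 126 clones, 15 were below every control on all 4 mutant arrays (11.9%; 5.82% of all targets), 36 on 3 of them (28.6%; 10.71%), 41 on 2 (32.5%; 24.0%), 17 on 1 (13.5%; 20.3%) and 17 on none (13.5%; 39.1%).

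**Figure D3:**
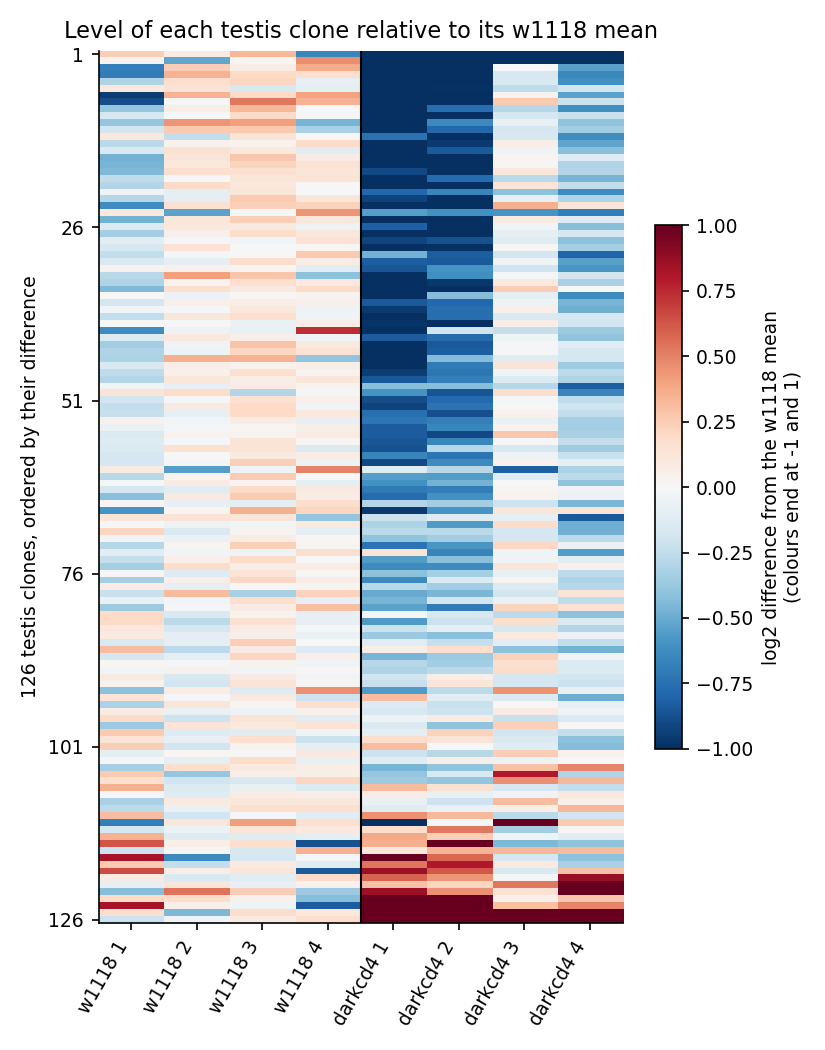
Level of each of the 126 tested testis clones (one line each, ordered by difference) on the 8 arrays, as the log2 difference from the clone's w1118 mean. Blue is lower and red higher, and colours end at -1 and 1. Most lines are blue on darkcd4 replicates 1 and 2, paler on replicate 4 and nearly white on replicate 3, and w1118 replicate 1 is bluer than the other controls.

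The arrays with low testis clones included those high in small structured RNAs. The 2 lowest testis medians belonged to darkcd4 replicates 1 and 2, and the lowest control was w1118 replicate 1, the same 3 arrays. In slide row 1 alone the median difference was -0.50, and in row 2, which holds none of the 3, it was -0.21, with 99 and 100 of 126 clones below 0. Both rows were below 0 for 84 clones and both above 0 for 11. Without the 3 arrays the median difference was -0.19 with 98 clones below 0, and with the small structured RNA level as a covariate it was -0.26 with 104 below 0. The other targets had medians between -0.03 and -0.01 in these 4 fits. The shift was thus smaller without these arrays, with its direction kept. The row 2 fit and the fit without the 3 arrays have the same mutant arrays, darkcd4 replicates 3 and 4. They are therefore not separate results. The median deviation of the testis clones from their means over all 4 controls was -0.03 on replicate 3 and -0.25 on replicate 4. Those means include w1118 replicate 1. The testis medians of darkcd4 replicates 3 and 4, -0.72 and -1.08, were below those of both controls in row 2, -0.50 and -0.61.

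Among the mutant arrays, the signal of the whole array also moved with the testis clones. The 75th percentile used for scaling was 456.5, 553.1, 472.3 and 488.5 on w1118 replicates 1 to 4 and 253.9, 366.5, 515.7 and 369.8 on darkcd4 replicates 1 to 4. The 3 mutant arrays whose testis medians lay below every control had the 3 lowest values, and darkcd4 replicate 3, whose testis median lay among the controls, had a value among theirs. The controls did not follow this order. Replicate 2 had the highest value, 553.1, with a testis median of -0.69, and replicate 3 had 472.3 with the highest median, -0.50. The part of the array signal in the shift was not tested.

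The number of called clones depended on how the rows and arrays were treated. With slide row added to the fit as a block, 19 clones were called (15.1%; 9.07% of all targets), 15 of them lower (11.9%; 4.75% of all targets) and 4 higher. All 5 calls of the main fit were among them. With the small structured RNA level as a covariate 17 were called, 15 lower and 2 higher (13.5%; 9.89% of all targets). Without darkcd4 replicate 3, the mutant array nearest to the controls, 34 were called, 31 lower and 3 higher (27.0%; 13.2% of all targets), and without any one of the other arrays 3 or 4 were called (2.38% or 3.17%; 0.713% to 1.47% of all targets).

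Other transcripts made in males did not share one pattern. The RNA roX1, which coats the male X chromosome in dosage compensation, was at 3.80, 4.03, 4.04 and 4.21 on w1118 replicates 1 to 4 and at 3.61, 3.66, 4.11 and 4.17 on darkcd4 replicates 1 to 4. Within each genotype its lowest arrays were the same as for the testis clones. Its difference was -0.13 ± 0.17 (SE; limma, adjusted p = 0.668), turning to 0.01 in row 2 alone. Its partner roX2 was at 0.64, -0.95, -0.83 and -0.67 in w1118 and at 1.34, 1.04, -0.76 and -0.52 in darkcd4, thus high where the small structured RNAs were high. The roX2 difference was 0.73 ± 0.53 (SE; limma, adjusted p = 0.446). A second, dimmer target of each RNA differed by -0.06 for roX1 and by 0.33 for roX2. Dup99B, which encodes an ejaculatory duct peptide passed to females at mating, was at 3.78, 3.18, 3.37 and 2.86 in w1118 and at 4.20, 3.41, 3.02 and 2.89 in darkcd4, and differed by 0.08 ± 0.30 (SE; limma, adjusted p = 0.896). With quantile normalization its difference was -0.03. The part of the share of males in the testis clone shift was not tested.

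The shift was present at all signal levels. When the testis clones were divided into 3 equal groups of 42 by their mean level over all arrays, the median difference was -0.20 in the low group, -0.44 in the middle and -0.41 in the high group. Other targets within the same limits had medians of -0.05, -0.01 and 0.01. Differences below 0 were seen for 30, 37 and 38 of 42 clones. Clones with a gene name had a median difference of -0.17 (17 of 21 below 0) and those without one -0.40 (88 of 105).

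The largest fall belonged to AT29354, a clone for which no gene could be named. It was at -0.18, -0.35, -0.10 and -1.08 on w1118 replicates 1 to 4 and at -3.92, -3.87, -4.36 and -3.94 on darkcd4 replicates 1 to 4. All mutant values lay more than 2 units below all controls, and the probe was well above background on all 8 arrays. The difference was -3.59 ± 0.22 (SE, n = 4 per genotype; limma, adjusted p = 6.88e-05), a 12.1-fold lower signal. It was called in every setting tried.

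The largest rise was that of AT04751, also without a gene name. Its level was -4.83, -4.66, -4.53 and -4.44 in w1118 and -0.96, -0.79, 0.24 and 0.07 in darkcd4. Within the mutant the values of row 2 were higher than those of row 1, and none came near the controls. The difference was 4.25 ± 0.27 (SE, n = 4 per genotype; limma, adjusted p = 7.78e-05), a 19.1-fold higher signal, from a control level that was well above background on all 4 arrays. This call was also made in every setting tried.

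AT23078 is the clone of CG8204, a protein-coding gene on chromosome arm 2R, the arm that carries dark. The other 7 tested clones with a gene named on this arm had differences below 0 and none was called. AT23078 was at -0.49, -1.10, -0.48 and -0.55 in w1118 and at 1.39, 1.25, 0.56 and 0.70 in darkcd4. Every mutant array was above every control, with the arrays of row 1 highest. It rose by 1.63 ± 0.22 (SE, n = 4 per genotype; limma, adjusted p = 0.00777). This rise was called in every setting tried.

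The other 2 called clones fell, and neither could be named. AT08919 was at 1.88, 1.83, 2.04 and 1.91 in w1118 and at 1.13, 1.26, 1.50 and 1.28 in darkcd4, a difference of -0.62 ± 0.11 (SE; limma, adjusted p = 0.0265) or 1.54-fold. AT07326 was a dim target, at -4.47, -5.02, -4.49 and -4.04 in w1118 and at -6.36, -5.81, -5.52 and -6.26 in darkcd4. It was well above background on 4 control and 2 mutant arrays and fell by 1.48 ± 0.27 (SE; limma, adjusted p = 0.0304). For both, the genotypes did not overlap, but the calls were lost in several settings: in row 1 alone (limma, adjusted p = 0.0586 and 0.0906), in row 2 alone (0.125 and 0.110), without the 3 arrays high in small structured RNAs (0.0700 and 0.114), and without most single arrays (up to 0.109 and 0.113). With normexp correction and quantile normalization AT07326 differed by -0.22 (limma, adjusted p = 0.0787). Each of the 5 called clones was read by 1 probe, so no second probe bears on these values. The probe of AT29354 lay in 1 spot per array, without a repeat, and each of the others in 2.

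**Figure D4:**
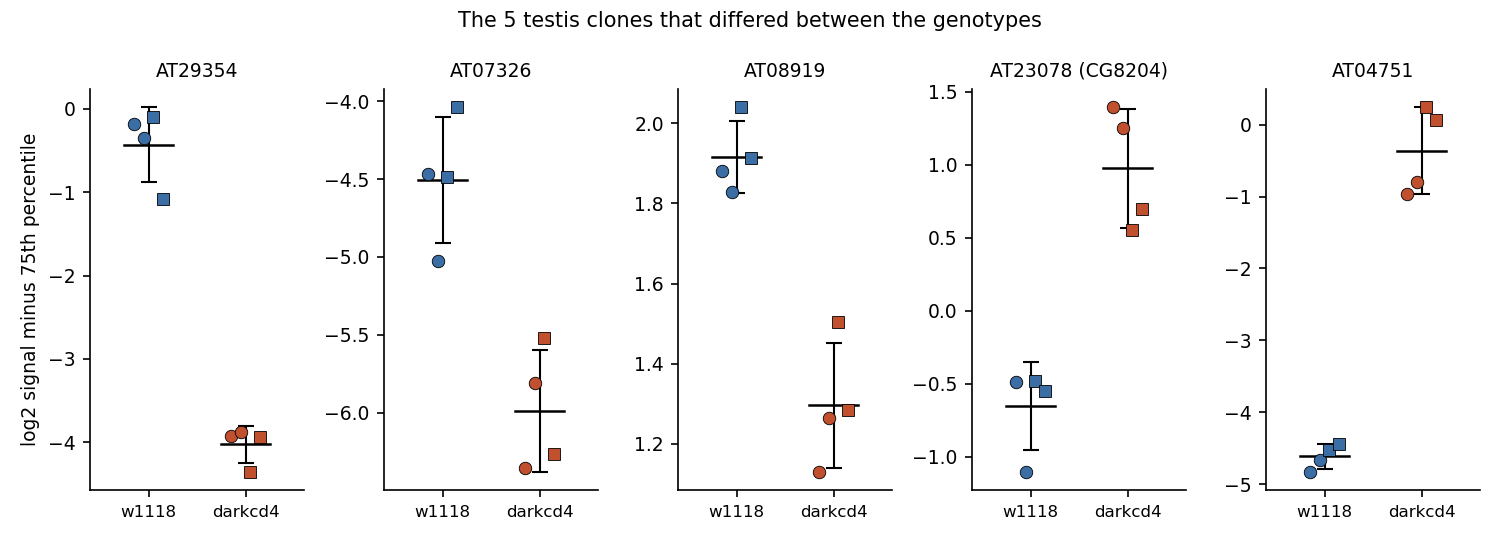
Level (log2 signal minus the 75th percentile) of the 5 called testis clones on each array, with circles for slide row 1, squares for row 2, and the mean and SD of each genotype as bars. In each panel, which has its own vertical scale, the w1118 and darkcd4 values do not overlap. AT29354, AT07326 and AT08919 are lower in the mutant and AT23078 and AT04751 higher.

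Among clones with a gene name, 2 encode subunits of the vacuolar proton pump (V-ATPase), which acidifies organelles. Vha100-3, a membrane subunit read by AT03238, was at 1.42, 1.52, 1.50 and 1.67 in w1118 and at 0.61, 0.66, 1.41 and 1.11 in darkcd4. The genotypes did not overlap, by a margin of 0.01 between darkcd4 replicate 3 and w1118 replicate 1, and the difference of -0.58 ± 0.18 did not pass (SE; limma, adjusted p = 0.136). With the row as a block it was called (limma, adjusted p = 0.0330), as it was in row 1 alone, with array weights, with the small structured RNA covariate and without darkcd4 replicate 3. Vha13, a subunit of the pump's peripheral sector, read by AT14009, was at 5.26, 4.76, 4.94 and 4.84 in w1118 and at 5.41, 5.28, 4.68 and 4.76 in darkcd4. Its difference of 0.08 ± 0.21 (SE; limma, adjusted p = 0.834) turned to -0.14 with quantile normalization.

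CG33140, read by AT21895, and CG30284, read by AT22714, had differences close to that of Vha100-3. CG33140 was at -0.49, -0.48, -0.50 and -0.63 in w1118 and at -1.38, -1.13, -0.73 and -1.11 in darkcd4, with no overlap and a difference of -0.56 ± 0.14 (SE; limma, adjusted p = 0.0813). CG30284 was at 0.78, 0.83, 1.11 and 1.01 in w1118 and at 0.11, 0.09, 0.88 and 0.39 in darkcd4, where replicate 3 lay among the controls, and differed by -0.56 ± 0.18 (SE; limma, adjusted p = 0.144). With the row as a block both were called (limma, adjusted p = 0.0385 and 0.0318). CG31542, read by AT15479, was at 2.05, 2.37, 2.69 and 2.50 in w1118 and at 1.33, 1.56, 2.38 and 2.29 in darkcd4, and differed by -0.51 ± 0.25 (SE; limma, adjusted p = 0.279). Its 2 arrays of darkcd4 in row 1 were below all controls and those of row 2 were not. CG31867, read by AT02643, differed by -0.28 ± 0.15 (SE; limma, adjusted p = 0.306).

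The gene wuc, whose protein binds the meiotic arrest factor Aly, was read by AT27450. It was at -2.65, -2.64, -2.66 and -3.16 in w1118 and at -2.99, -2.90, -2.88 and -3.61 in darkcd4. Replicate 4 was the lowest in both genotypes, the genotypes overlapped, and the difference was -0.32 ± 0.20 (SE; limma, adjusted p = 0.385). The remaining named clones of high signal lay near 0. CG32148 (AT21341) differed by -0.08 ± 0.12, CG11333 (AT02774) by -0.07 ± 0.14 and CG15605 (AT23338) by -0.03 ± 0.10 (SE; limma, adjusted p from 0.718 to 0.889), and the signs of all 3 turned in some settings.

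A further 4 named clones were singled out after their values were seen, for what their genes do. Drep3, of the family related to the apoptotic DNA fragmentation factor, was read by AT08574 at -1.32, -1.27, -0.94 and -1.05 in w1118 and at -1.85, -1.83, -1.12 and -1.18 in darkcd4, and differed by -0.35 ± 0.20 (SE; limma, adjusted p = 0.333). Its 2 mutant arrays of row 1 were below all controls and the other 2 among them. The ubiquitin-specific protease gene puf (AT28817) differed by -0.45 ± 0.19 and the ribosomal protein gene RpS29 (AT28563) by 0.28 ± 0.24 (SE; limma, adjusted p = 0.219 and 0.525). Both targets were dim in w1118, with means of -4.54 and -3.26, below the lower quartile of the testis clones, -2.67. The cell adhesion gene Ten-m (AT25108) was at -4.39, -4.18, -4.38 and -4.26 in w1118 and at -4.01, -4.09, -3.78 and -3.13 in darkcd4, with no overlap, and differed by 0.55 ± 0.22 (SE; limma, adjusted p = 0.199). It was among the 21 clones with a difference above 0, and was 1 of the 3 whose mutant values were all above the controls, with AT04751 and AT23078.

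The clones of the highest signal in w1118 differed little between the genotypes. AT25373 was at 6.21, 5.73, 5.74 and 5.77 in w1118 and at 6.25, 6.11, 5.82 and 5.76 in darkcd4, and AT02348 at 5.61, 5.11, 5.18 and 5.12 in w1118 and at 5.57, 5.41, 5.09 and 5.01 in darkcd4. Both, like Vha13, were highest on the 3 arrays rich in small structured RNAs, opposite to most testis clones. Their differences of 0.12 ± 0.18 and 0.01 ± 0.18 (SE; limma, adjusted p = 0.723 and 0.973) turned to -0.20 and -0.25 with quantile normalization. AT30951 differed by -0.19 ± 0.13 and AT26009 by -0.16 ± 0.18 (SE; limma, adjusted p = 0.407 and 0.617), and each overlapped between the genotypes.

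Some clones varied as much between control arrays as between genotypes. AT21495 was at -4.14, -4.92, -5.02 and -5.80 in w1118 and at -3.22, -3.04, -4.67 and -4.48 in darkcd4, with an SD of 0.68 in the control, the largest of the 126. Its difference was 1.12 ± 0.46 (SE; limma, adjusted p = 0.208), and it was called with the row as a block (limma, adjusted p = 0.0324). AT19369 ran the other way, at 0.96, 1.85, 2.38 and 2.20 in w1118 and at 0.51, 0.34, 2.11 and 1.63 in darkcd4, lowest on the 3 arrays rich in small structured RNAs. It differed by -0.70 ± 0.44 (SE; limma, adjusted p = 0.379), and its second probe by -1.16 ± 0.47 (limma over all probes, adjusted p = 0.226). AT28829 differed by -0.81 ± 0.41 (SE; limma, adjusted p = 0.291) at its brightest probe and by -0.07 and -0.12 at its other 2. AT31109 and AT11167, the other 2 of the 5 most variable, differed by 0.20 ± 0.44 and 0.41 ± 0.36 (SE; limma, adjusted p = 0.817 and 0.538).

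Probes of the same clone differed in size more than in sign. Of the 12 clones with more than 1 probe that passed the background filter, all 12 had differences of one sign at every probe, and the range between probes of a clone was 0.09 in the median and 0.74 at most, the latter for AT28829. AT08427, singled out after its values were seen, differed by -0.39 ± 0.23 at the probe that stood for it and by -1.07 ± 0.16 at its other probe (SE; limma over all probes, adjusted p = 0.372 and 0.0139). With the probe of highest signal in w1118 taken for each clone, 6 clones were called (4.76%; 2.21% of all targets), 4 of them lower (3.17%; 0.921% of all targets). The 13 clones that were not tested lay near background: 6 were well above it on none of the 8 arrays, and 7 on 1 to 3 arrays. Among these 13 were CG31870 (AT11120) and the antisense RNA CR30267 (AT28638), the 2 named clones that were left out of the tests.

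**Figure D5:**
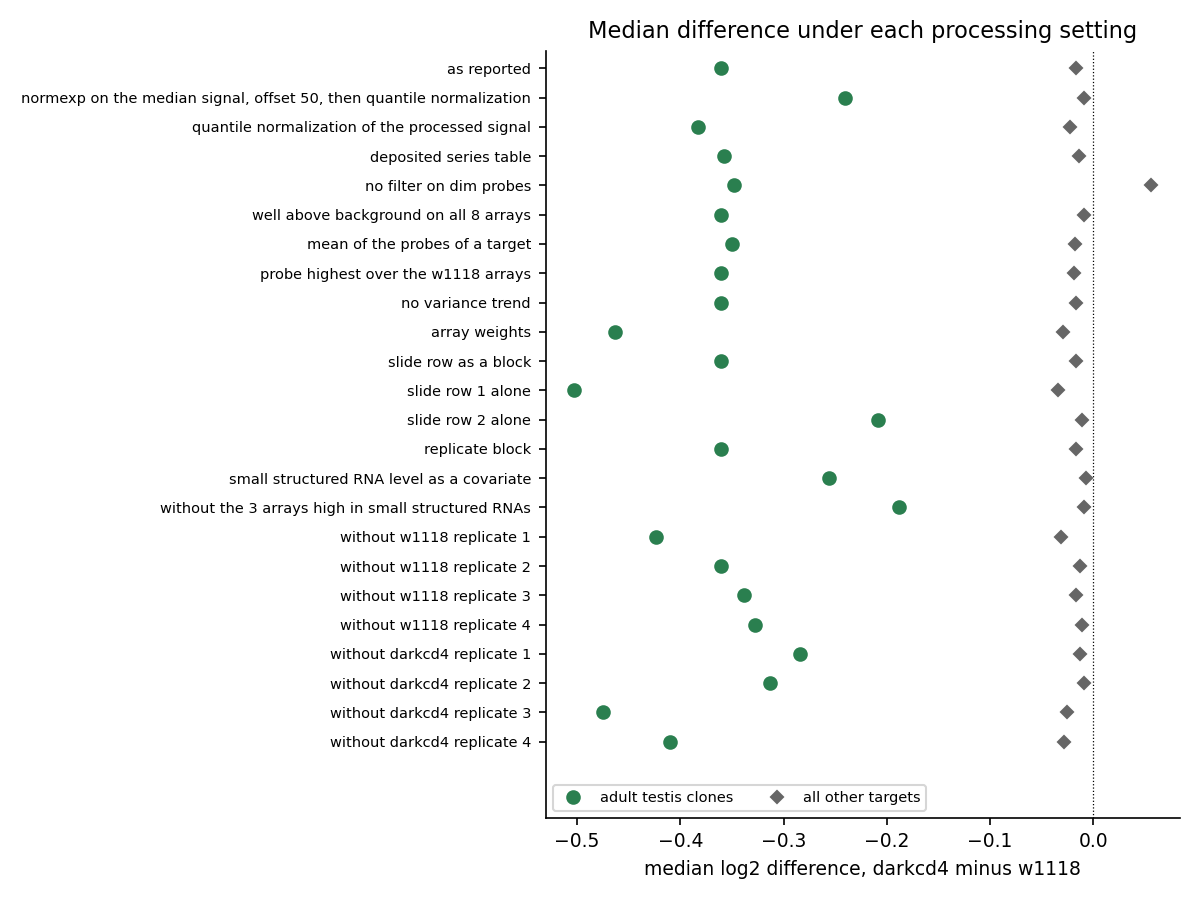
Median log2 difference between darkcd4 and w1118 (horizontal axis) of the testis clones (green circles) and of all other targets (grey diamonds) as reported and under each alternative processing setting (vertical axis). The testis median lies between -0.50 and -0.19 in all of them, and that of the other targets between -0.03 and 0.06.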

How the data were processed

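RNA of 8 samples was labelled with Cy3 from 50 ng each, per the labels' protocols. The authors deposited the scanner output of each array, made with Agilent Feature Extraction 10.7.3.1 per the submitters' processing notes, and its processed signal is a linear intensity not normalized between arrays. The other values used from the deposited files are 0 or 1 flags for outlier spots and spots well above background. The authors' deposited series table holds log2 values that follow the scaled scanner values, centred per probe, with r = 1.00. Its column medians were -0.041, -0.012, 0.0087 and -0.012 for w1118 and 0.052, 0.027, -0.015 and 0.034 for darkcd4.

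Outlier spots and 80 spike probes were excluded, 0 spots were saturated, and repeated spots of a probe were averaged as log2 values. The 24656 probes flagged as well above background on 4 or more arrays entered, and the brightest probe stood for each of 19219 targets. The genotype difference was fitted by limma 3.58.1 (trended eBayes, R 4.3.3), and p-values were adjusted over all targets by Benjamini and Hochberg's method, called at 0.05. Tables and figures were made in Python 3.11.15 with matplotlib 3.10.9. Gene names came from a RefSeq table of the Release 6 assembly, which named 384 of 32162 fly probes. The array's grid names another build, so no positions are printed. The 20979 probes known by FlyBase transcript numbers were not named here. No probe sequence was used here. The clones and lists were chosen with earlier results of these data known. The genes named are all called clones, the 5 of highest signal in w1118, those on a fixed list, up to 10 further ones with a symbol and the highest signal, the 5 with the largest SD in w1118, and roX1, roX2 and Dup99B. Drep3, puf, RpS29, Ten-m, AT08427 and clones too dim to test were named outside this rule, after their values were seen.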

Additional observations from a re-analysis of the deposited data

Results flagged for a closer look

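Of 64 groups of 4 arrays checked for an array far from the other 3, 8 had one. Chance gives about 1 in 20 for independent groups. The groups checked share arrays and include clones chosen for a large SD in w1118, so no excess can be read from this count. AT23078 (CG8204) was at -1.10 in w1118 replicate 2, with the other controls between -0.55 and -0.48, and AT29354 was at -4.36 in darkcd4 replicate 3, with the other mutant arrays between -3.94 and -3.87. AT25373 and AT02348 were high in w1118 replicate 1, at 6.21 and 5.61, with the other controls between 5.73 and 5.77 and between 5.11 and 5.18, and AT28829 was low there, at -3.86 against -2.71 to -2.51. AT27450 (wuc) was low in replicate 4 of both genotypes, at -3.16 in w1118 against -2.66 to -2.64 and at -3.61 in darkcd4 against -2.99 to -2.88. AT21895 (CG33140) was at -0.63 in w1118 replicate 4, with the other controls between -0.50 and -0.48.

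Among the clones too dim to test, 2 were well above background on 1 mutant array and on no control. AT10830 was at -4.33 on darkcd4 replicate 1, while its other 7 values ran from -8.37 to -7.32. AT28638, the clone of the antisense RNA CR30267, was at -6.77 on darkcd4 replicate 2 and between -8.94 and -7.69 elsewhere.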

How the results depend on the processing

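The median difference of the testis clones stayed below 0 under all 23 alternatives, from -0.50 to -0.19, and so did its difference from the other targets. Leaving out single arrays gave -0.47 to -0.28, and -0.57 to -0.36 for the array medians relative to the other targets. The median of the other targets was 0.06 without the filter on dim probes.

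Counts of calls moved most, and the cause was not tested. Testis clones called, with all targets called after them, numbered 35 and 2275 with array weights, 19 and 1743 with the slide row as a block, 13 and 912 in row 1 alone, 3 and 201 in row 2 alone, 17 and 1901 with the small structured RNA covariate, and 3 and 410 without the 3 arrays high in these RNAs. With the replicate number as a block they were 8 and 1049, but same-numbered arrays did not deviate together in every pair (correlations 0.68, -0.18, 0.29 and 0.33) and were not taken as paired. Leaving out single arrays gave 3 to 34 testis clones and 137 to 2529 targets, both highest without darkcd4 replicate 3. The median w1118 level, -0.65 over the array medians, was -1.15 without the filter and -0.52 with targets well above background on all 8 arrays, which change the clones counted.

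Uncalled differences near 0 changed sign. With normexp and quantile normalization AT25373 was -0.17, AT02348 -0.20, AT14009 -0.10, AT23338 0.00068 and Dup99B -0.044, and with quantile normalization alone AT25373 was -0.20, AT02348 -0.25, AT14009 -0.14 and Dup99B -0.032. With array weights AT02774 was 0.037. In row 1 alone AT21341 was 0.023, AT02774 0.0023 and AT23338 0.023, and in row 2 alone AT02348 was -0.10, AT14009 -0.17, AT31109 -0.078, roX1 0.014 and Dup99B -0.16. With the covariate AT25373 was -0.021, AT02348 -0.14, AT14009 -0.10, AT31109 -0.12, roX1 0.0033 and Dup99B -0.18. Without the 3 arrays AT02348 was -0.089, AT14009 -0.12, AT26009 0.040, AT31109 -0.22, roX1 0.045 and Dup99B -0.18. Leaving out single arrays gave -0.086 to 0.13 for AT02348, -0.042 to 0.20 for AT14009, -0.17 to 0.016 for AT02774, -0.057 to 0.032 for AT23338, -0.16 to 0.41 for AT31109 and -0.19 to 0.24 for Dup99B.

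The 4 arrays per genotype and the single slide limit precision, and column position on the slide cannot be told apart from genotype.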
